A study of Mus musculus with 9 samples.

Results

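The mRNA of 10 heat shock genes was followed in mouse liver after treatment with an adiponectin receptor agonist and a PEGylated analog of it. The genes are Hspa8, Hspa1a, Hspa1b, Hsph1, Dnajb1, Bag3, Hsp90aa1, Hsp90ab1, Hspb1 and Hspe1, each matched by its symbol and each found as 1 of the 35275 entries of the deposited table. RNA from liver of C57BL/6 mice was sequenced in 9 libraries. Of these, 3 came from animals given AdipoRonPEG5, a PEGylated analog of AdipoRon, 3 from animals given AdipoRon, which activates the adiponectin receptors as a small molecule, and 3 from animals given vehicle (PBS). Compounds and vehicle were injected 2 times a day for 5 days, and liver was then frozen. The labels attach a dose of 5 mg/kg to the compounds and to PBS in 1 sentence, which leaves each compound's own dose uncertain. They do not say whether the libraries of a group are separate animals, and p-values then measure only the spread between these libraries.

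Heat shock proteins are molecular chaperones that keep other proteins folded. HSP70 proteins bind exposed stretches of unfolded protein, J-domain partners deliver those clients and start the ATP cycle, exchange factors release them, and HSP90 proteins finish the folding of kinases and of nuclear receptors such as the glucocorticoid receptor. When unfolded protein accumulates, the transcription factor HSF1 binds repeated GAA units in the promoters of many of these genes and raises their transcription. The liver, which makes most plasma proteins, expresses the constitutive forms at high levels. The name cytosolic holds for 9 of the genes; Hspe1 encodes the mitochondrial HSP10, the lid of the HSP60 chaperonin encoded by Hspd1.

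Where the HSF1-type sequence stands in these genes is shown first, because it is the element the family is known for. The motif searched was GAANNTTC or TTCNNGAA, each its own reverse complement, so that a match counts on both strands, and neighbouring matches can share a unit. Windows of 300 bases, 250 before to 50 after the start, came from RefSeq (GRCm38.p6) and were found for 7 of the 10 genes: Hspa1a, Hspa1b, Hsph1, Dnajb1, Bag3, Hspb1 and Hspe1. Of all 32851 windows, 15.1% held the motif, 1.96% held at least 2 matches, and 0.603% held 3 units in a row. Capitals mark the matched bases, 5′ to 3′ on the gene's strand, with 20 bases of flank on each side.
Hspa1a (chr17:34972233-34972280, minus strand): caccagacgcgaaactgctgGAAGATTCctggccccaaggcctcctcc
Hspa1b (chr17:34959315-34959362, minus strand): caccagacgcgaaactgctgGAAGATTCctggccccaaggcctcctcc
Hsph1 (chr5:149636342-149636389, minus strand): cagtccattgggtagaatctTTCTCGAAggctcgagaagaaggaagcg
Hspb1 (chr5:135887782-135887849, plus strand): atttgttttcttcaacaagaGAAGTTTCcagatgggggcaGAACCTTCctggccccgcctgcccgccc
Hspe1 (chr1:55088039-55088096, plus strand): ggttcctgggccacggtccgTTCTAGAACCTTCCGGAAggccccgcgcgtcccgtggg

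The Hspa1a and Hspa1b stretches were identical, and their whole windows were the same at 296 of 300 bases (98.7%). In both genes the match began 104 bases before the start. In Hspe1 the 3 overlapping matches formed an unbroken run of GAA and TTC units, and of the 2 windows of Hspd1, the gene on the other strand, 1 held the same run and 1 held no match. Hspb1 had 2 matches, the 2 Hsph1 windows, of different starts, each had 1 before and 2 after the start, the 2 after it sharing a unit and so making 3 units in a row, Bag3 had 1 after the start, and Dnajb1 had none. A match of letters is a description of the window and not a binding site, and a window without one says only that these letters were not there.

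The 10 genes spanned a wide range of levels in vehicle livers. On the length-corrected scale of FPKM (fragments per kilobase of gene per 1000000 counts, as the authors computed them), Hspa8 averaged 421 FPKM, Hsp90ab1 325 FPKM and Hspe1 204 FPKM. Hsp90aa1 followed at 52.8 FPKM, then Hspb1 at 20.7, Hsph1 at 20.6, Dnajb1 at 16.6, Bag3 at 16.5 and Hspa1b at 9.94 FPKM. Hspb1 and Hsph1 differed by less than the SD of either, and so did Dnajb1 and Bag3. Hspa1a was lowest, at 0.294 FPKM.

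Changes were tested on counts with edgeR's quasi-likelihood test over all 13151 genes that passed the filter on low counts, with Benjamini-Hochberg adjustment over all of them and a threshold of 0.05. Levels below are counts per 1000000 (CPM) scaled by TMM factors, which correct for differences in RNA composition. Each library held between 13942322 and 18508950 counts, except vehicle 1 with 39473195, and 3 counts were worth 0.076 to 0.215 CPM. All 10 genes passed the filter. Both compounds were compared with the same 3 vehicle libraries, so that the comparisons with vehicle are not independent of each other.

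Against vehicle, AdipoRonPEG5 livers had less mRNA of 5 of the 10 heat shock genes and more of none. Hspa8 and its nucleotide exchange factor Hsph1 fell by about the same factor, Bag3 fell less, and Dnajb1 and Hsp90aa1 fell by less again. Over all genes tested, 7.63% were called lower and 9.55% higher in this comparison. Hsp90ab1, Hspe1, Hspb1, Hspa1b and Hspa1a did not pass. In the upward direction the edgeR count of 0 was also 0 with DESeq2 and with limma-voom, and Hspb1 alone had an unadjusted p under 0.05, as had 16.3% of all genes in that direction and 31.4% in either. The median log2 fold change of the 10 genes was -0.36, beside -0.001 over all genes tested. In TMM-scaled CPM, every AdipoRonPEG5 library lay below every vehicle library for 7 of the 10 genes, beside 17.0% of all genes. None of the 10 lay apart in the other direction, as 18.2% of all genes did. By FPKM, which is scaled by total counts, Hsp90ab1 and Hspe1 overlapped between these groups. Hspb1, in contrast, lay apart upward by FPKM, at 22.8 to 31.1 with AdipoRonPEG5 and 19.6 to 21.8 with vehicle. The share of all genes apart by FPKM was not computed.

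With AdipoRon, Bag3 alone passed, lower than in vehicle; 5 of the 10 were lower and 0 higher at an unadjusted p under 0.05 in edgeR, beside 9.39% and 12.5% of all genes, and DESeq2 called 2 lower. Over all genes, 1.40% were called lower and 3.80% higher. The median log2 fold change of the 10 genes was -0.22, beside 0.006 over all genes. In TMM-scaled CPM, all AdipoRon libraries lay below all vehicle libraries for Hspa8, Dnajb1, Bag3 and Hspe1. Of all genes, 12.4% were apart in this way and 14.4% the other way. By FPKM, Hspa8 overlapped between AdipoRon and vehicle, and Hsp90aa1 lay apart upward, at 56.9 to 60.2 with AdipoRon and 47.4 to 55.7 with vehicle.

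Between the compounds, Hspa8, Hsph1 and Hsp90aa1 were lower with AdipoRonPEG5 than with AdipoRon, and none of the 10 was called higher by edgeR, DESeq2 or limma-voom (0 also at an unadjusted p under 0.05, beside 10.2% of all genes), beside 2.71% of all genes called lower and 2.68% called higher. The median log2 difference of the 10 genes was -0.08, beside -0.013 over all genes. In TMM-scaled CPM, the libraries of the compounds did not overlap for these 3 genes, lower with AdipoRonPEG5, beside 14.2% of all genes. Nor did they for Hspe1, higher with AdipoRonPEG5, beside 13.9% of all genes. By FPKM, Hsp90ab1 was also apart, at 269 to 320 with AdipoRonPEG5 and 329 to 405 with AdipoRon.

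**Figure D1:**
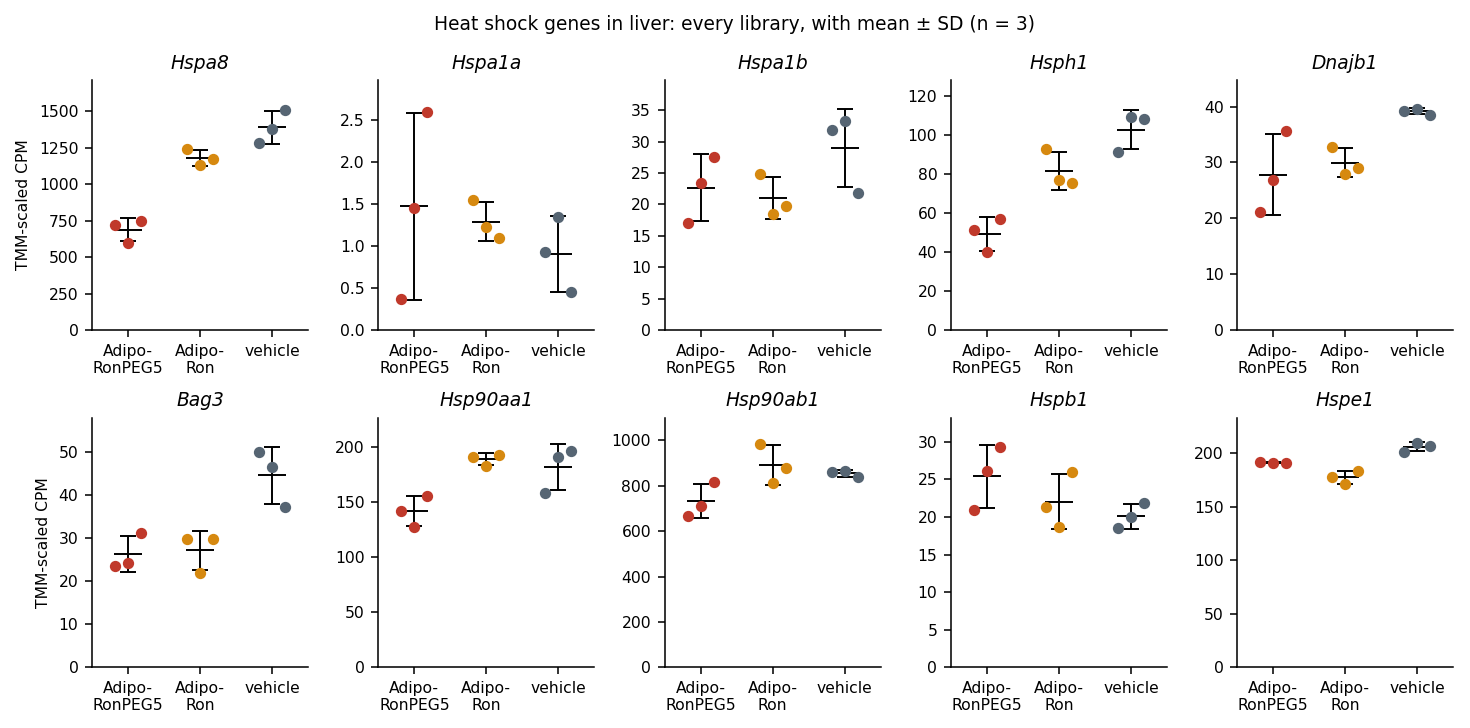
TMM-scaled CPM of each of the 10 heat shock genes in every library (points), with the mean and SD of 3 libraries per group (bars); each panel has its own axis from 0. The 3 AdipoRonPEG5 libraries lie at 596 to 746 CPM of Hspa8, apart from AdipoRon at 1131 to 1238 CPM and vehicle at 1283 to 1511 CPM, while Bag3 is at like levels with both compounds and higher in vehicle.

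Hspa8 encodes HSC70, the constitutive cytosolic HSP70. It was at 718, 596 and 746 CPM in AdipoRonPEG5 livers, at 1238, 1131 and 1172 CPM in AdipoRon livers, and at 1283, 1376 and 1511 CPM in vehicle livers. In CPM the 3 groups did not overlap at all, and the gap below AdipoRon was the widest. By FPKM, which is scaled by total counts, AdipoRon 1 (407 FPKM) lay above vehicle 1 (401 FPKM). Relative to vehicle, Hspa8 fell by 50.6% with AdipoRonPEG5 (log2 fold change -1.02 ± 0.11 (SE), 95% confidence interval -1.26 to -0.78, adjusted p = 0.00037). It was also lower with AdipoRonPEG5 than with AdipoRon (-0.78 ± 0.11, interval -1.02 to -0.54, adjusted p = 0.0040). AdipoRon against vehicle gave -0.24 ± 0.11 (interval -0.47 to 0.002, adjusted p = 0.233), which did not pass.

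Hspa8 ranked between 158 and 188 among all genes by count in AdipoRonPEG5 libraries, between 99 and 107 in AdipoRon libraries and between 93 and 99 in vehicle libraries. It held 33.7% to 38.7% of the counts of the 10 genes with AdipoRonPEG5, 44.3% to 46.0% with AdipoRon and 46.9% to 50.7% with vehicle. The summed level of the 10 genes was 1769 to 2091 CPM in AdipoRonPEG5, 2462 to 2793 CPM in AdipoRon and 2735 to 2979 CPM in vehicle livers. Without Hspa8 the sum was 1136 to 1345 CPM in AdipoRonPEG5, 1330 to 1555 CPM in AdipoRon and 1452 to 1516 CPM in vehicle livers. Even without Hspa8, the summed level was lower in every AdipoRonPEG5 library than in any vehicle library. The largest part of that sum was Hsp90ab1, which averaged 732 CPM with AdipoRonPEG5 and 855 CPM with vehicle and did not pass. The sum therefore does not show that each gene fell. In bulk tissue, fewer cells of a type and less of a heat shock mRNA per cell cannot be told apart.

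Hsph1 encodes HSP110, which exchanges nucleotide on HSC70 and helps it pull apart aggregates. It was at 51.2, 39.8 and 56.8 CPM in AdipoRonPEG5 livers, at 92.5, 76.7 and 75.0 CPM in AdipoRon livers and at 90.9, 109 and 108 CPM in vehicle livers. AdipoRonPEG5 stood below both other groups, and AdipoRon 1 overlapped with vehicle 1. The log2 fold change was -1.06 ± 0.13 (SE) for AdipoRonPEG5 against vehicle (adjusted p = 0.00076) and -0.73 ± 0.13 against AdipoRon (adjusted p = 0.0145). AdipoRon against vehicle gave -0.33 ± 0.13 (interval -0.62 to -0.04, adjusted p = 0.173).

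Hspa8 and Hsph1 had similar ratios in the 3 groups. The ratio of their FPKM was 21.2 ± 1.4 with AdipoRonPEG5, 22.0 ± 1.7 with AdipoRon and 20.5 ± 1.2 with vehicle (SD, n = 3 each), and the groups overlapped. The ratio of Hspa8 to Hsp90ab1, the constitutive cytosolic HSP90, was 0.752 ± 0.098 with AdipoRonPEG5, 1.06 ± 0.054 with AdipoRon and 1.30 ± 0.13 with vehicle. Here no groups overlapped, and by FPKM Hsp90ab1 exceeded Hspa8 in the 3 AdipoRonPEG5 libraries only. Which gene was higher rests on the gene lengths behind FPKM, 3158 bases for Hspa8 and 2520 for Hsp90ab1. It may also depend on how reads with several matches were counted, which was not stated. Of the 50-base stretches of the transcript, 73.2% for Hspa8 and 4.49% for Hsp90ab1 also occur in other genes. By CPM, AdipoRonPEG5 1 held more Hspa8 (718) than Hsp90ab1 (668). Each exact two-sided permutation test of the ratio of Hspa8 to Hsp90ab1 gave p = 0.1, the smallest that 3 libraries against 3 allow.

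**Figure D2:**
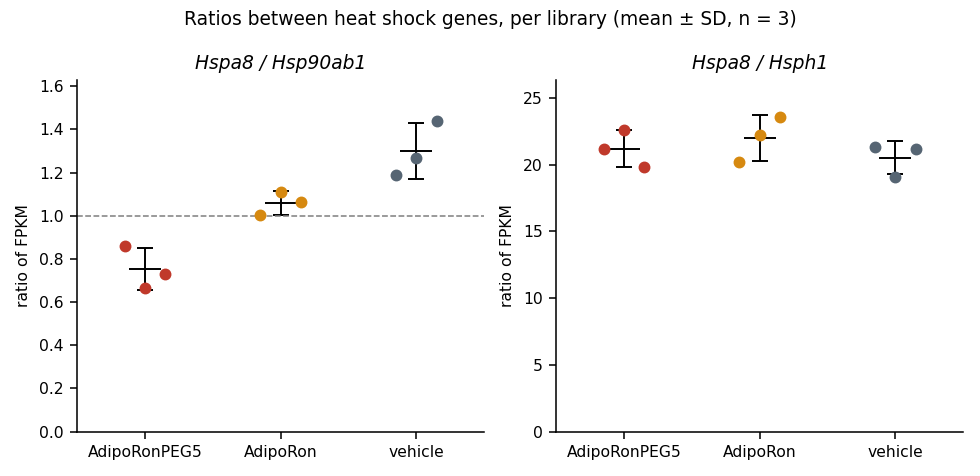
Ratios of FPKM within each library (points), with mean and SD of 3 libraries per group; the dashed line marks equal FPKM. Hspa8 over Hsp90ab1 averages 0.752 with AdipoRonPEG5, 1.06 with AdipoRon and 1.30 with vehicle without overlap, and Hspa8 over Hsph1 stays between 19.1 and 23.6 in all 9 libraries.

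How closely each gene followed Hspa8 was described by the root mean square difference in log2(CPM + 0.5), each gene centred on its own mean of the 9 libraries. Hsph1 differed from Hspa8 by 0.089, and none of the 7647 other genes with a mean of at least 10 CPM came closer. Hsp90aa1 differed by 0.278 (197 genes closer), Dnajb1 by 0.338, Hsp90ab1 by 0.346 and Bag3 by 0.370 (1111 genes closer). Hspe1, Hspa1b, Hspb1 and Hspa1a were farther, at 0.437, 0.469, 0.594 and 0.769, with 3024 to 7401 genes closer. The 9 points share the libraries' depth and scaling, and this likeness carries no test.

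Outside the family, the 5 genes nearest to Hspa8 were Mast3 (0.117), Slc29a1 (0.142), Gm16573 (0.152), Klf15 (0.152) and Anks1 (0.152). Slc29a1 encodes the nucleoside transporter ENT1, and Klf15 a transcription factor that glucocorticoids induce and that acts in hepatic amino acid catabolism. Klf15 averaged 139 CPM with AdipoRonPEG5, 224 CPM with AdipoRon and 302 CPM with vehicle, and Slc29a1 averaged 141 CPM with AdipoRonPEG5, 224 CPM with AdipoRon and 269 CPM with vehicle. Against vehicle, AdipoRonPEG5 gave log2 fold changes of -1.12 ± 0.12 (SE) for Klf15 and -0.93 ± 0.098 for Slc29a1 (adjusted p = 0.000341 and 0.000347). Mast3, a kinase gene, was at 46.1 ± 4.8 CPM with AdipoRonPEG5, 85.9 ± 5.9 CPM with AdipoRon and 86.3 ± 10.4 CPM with vehicle (SD, n = 3 each), so that its AdipoRon and vehicle means nearly coincided. These genes were chosen for their pattern, and their tests are no separate support for it.

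**Figure D3:**
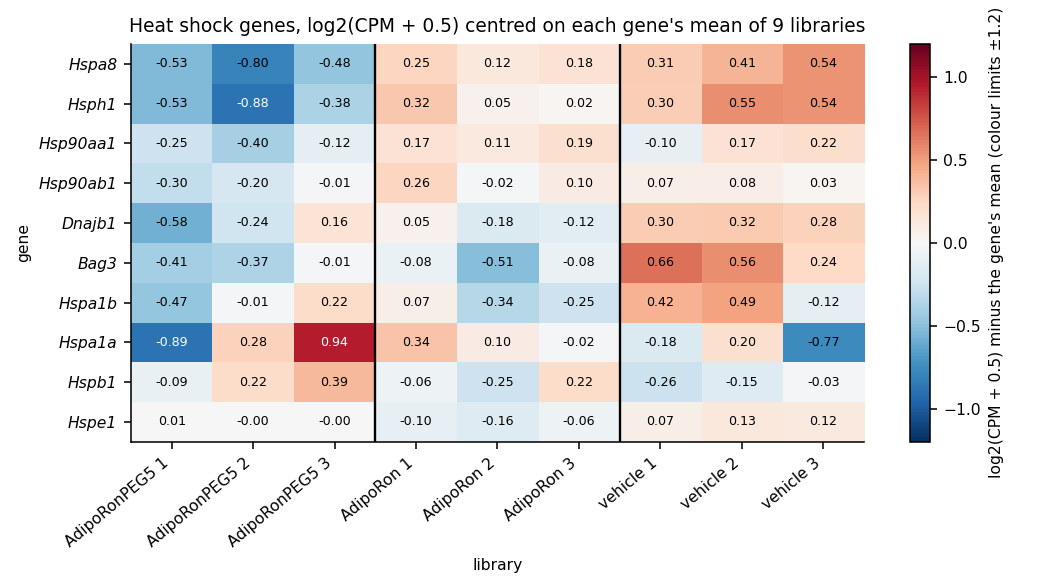
Log2(CPM + 0.5) of each heat shock gene in each library minus the gene's mean of 9 libraries, printed in every cell and coloured from blue (below the mean) to red (above it). The Hspa8 and Hsph1 rows differ by 0.089 (root mean square), and within the AdipoRonPEG5 group Hspa1a runs from -0.89 in library 1 to 0.94 in library 3.

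Hspa1a and Hspa1b encode the inducible HSP70 proteins, which are almost the same protein. The genes are a pair on chromosome 17, 10120 bases apart (GRCm38.p6, RefSeq annotation). Hspa1b was at 17.0, 23.4 and 27.5 CPM in AdipoRonPEG5 livers, at 24.8, 18.5 and 19.8 CPM in AdipoRon livers and at 31.8, 33.3 and 21.8 CPM in vehicle livers. Vehicle 3 lay among the treated libraries, and neither compound passed (AdipoRonPEG5 -0.36 ± 0.19, adjusted p = 0.234; AdipoRon -0.47 ± 0.20, adjusted p = 0.190). Hspa1a was near the lower end of detection, with 6, 28 and 42 counts in AdipoRonPEG5, 25, 22 and 16 counts in AdipoRon and 36, 18 and 6 counts in vehicle libraries. Its levels were 0.370, 1.45 and 2.59 CPM with AdipoRonPEG5, 1.54, 1.22 and 1.09 CPM with AdipoRon and 0.925, 1.34 and 0.446 CPM with vehicle, and the groups overlapped. The intervals of its log2 fold change were wide, -0.51 to 1.89 for AdipoRonPEG5 against vehicle and -0.73 to 1.73 for AdipoRon against vehicle (adjusted p = 0.425 and 0.649).

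Hspa1b took 91.4% to 97.9% of the counts of the pair with AdipoRonPEG5, 93.8% to 94.8% with AdipoRon and 96.1% to 98.0% with vehicle. The split is uncertain, since 60.3% of the 50-base words of the Hspa1a transcript and 62.3% of those of Hspa1b also occur in another gene (each other or Hspa1l), and the handling of reads with several matches was not stated by the submitters. Summed, the pair gave log2 fold changes of -0.31 ± 0.21 with AdipoRonPEG5 and -0.43 ± 0.21 with AdipoRon (adjusted p = 0.332 and 0.261), and 0.11 ± 0.21 between the compounds (adjusted p = 0.810). Summing thus turned the direction given for Hspa1a alone against vehicle. Hspa8 and Hsp90aa1 also share words with processed pseudogenes (73.2% and 58.5%). Hspb1 shared 51.6% of its words and Hspe1 36.1% with other genes. The table lists 4 of the 11 genes that share words with Hspa8, and 3 of 4 for Hsp90aa1. Those listed held 248 counts beside 181611 of Hspa8, and 229 beside 27809 of Hsp90aa1, over all libraries. Reads that fell on unlisted genes are not known. Hsph1 and Bag3 shared none.

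Dnajb1 encodes HSP40, the J-domain partner that stimulates the HSP70 ATPase. It was at 21.1, 26.8 and 35.6 CPM in AdipoRonPEG5 livers, at 32.9, 28.0 and 29.1 CPM in AdipoRon livers and at 39.2, 39.7 and 38.6 CPM in vehicle livers. Both compounds lay below all vehicle libraries, whose spread was narrow. AdipoRonPEG5 against vehicle was just past the threshold (log2 fold change -0.49 ± 0.15, adjusted p = 0.0462), AdipoRon was not (-0.39 ± 0.15, adjusted p = 0.165), and the difference between the compounds was -0.11 (interval -0.44 to 0.23, adjusted p = 0.740). The call with AdipoRonPEG5 was lost when any 1 of the 9 libraries other than AdipoRonPEG5 3 was left out (adjusted p = 0.0508 to 0.134) and with total-count scaling (adjusted p = 0.0787), while its direction held.

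Bag3 encodes a co-chaperone that links HSP70 to small heat shock proteins and to autophagy. It was at 23.5, 24.2 and 31.2 CPM in AdipoRonPEG5 livers, at 29.7, 22.0 and 29.8 CPM in AdipoRon livers and at 49.96, 46.5 and 37.2 CPM in vehicle livers. The compounds overlapped with each other, and all 6 of their libraries were below vehicle. Bag3 fell with AdipoRonPEG5 by 0.77 ± 0.15 on the log2 scale (adjusted p = 0.00718) and with AdipoRon by 0.72 ± 0.15 (adjusted p = 0.0247). The difference between the compounds was -0.04 with an interval of -0.39 to 0.30 (adjusted p = 0.900). Without AdipoRon 2, vehicle 1 or vehicle 2, the AdipoRon call was lost (adjusted p = 0.0683, 0.0741 and 0.0785).

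Hsp90aa1, the stress-responsive cytosolic HSP90, was at 142, 128 and 155 CPM in AdipoRonPEG5 livers, at 190, 183 and 193 CPM in AdipoRon livers and at 158, 190 and 196 CPM in vehicle livers. AdipoRonPEG5 was below the others, though AdipoRonPEG5 3 and vehicle 1 nearly met. The log2 fold change was -0.36 ± 0.10 for AdipoRonPEG5 against vehicle (adjusted p = 0.0331), -0.41 ± 0.10 against AdipoRon (adjusted p = 0.0397) and 0.06 ± 0.10 for AdipoRon against vehicle (interval -0.16 to 0.28, adjusted p = 0.787). The call against vehicle was lost without AdipoRonPEG5 1 or 2 or vehicle 2 or 3 (adjusted p = 0.0753 to 0.128). The call against AdipoRon was lost without any 1 of the 6 libraries compared, or vehicle 2 (adjusted p = 0.056 to 0.147).

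Hsp90ab1 was at 668, 713 and 816 CPM in AdipoRonPEG5 livers, at 984, 811 and 880 CPM in AdipoRon livers and at 862, 867 and 837 CPM in vehicle livers. In CPM the AdipoRonPEG5 libraries lay just below vehicle, but by FPKM they overlapped with it. The test did not pass (log2 fold change -0.22 ± 0.10, interval -0.45 to 0.004, adjusted p = 0.168). AdipoRon gave 0.06 ± 0.10 (interval -0.17 to 0.29, adjusted p = 0.785), and the compounds differed by -0.28 ± 0.10 (adjusted p = 0.139). The FPKM of Hsp90ab1 was 6.75 ± 0.59 times that of Hsp90aa1 with AdipoRonPEG5, 6.15 ± 0.50 times with AdipoRon and 6.20 ± 0.81 times with vehicle (SD, n = 3 each), with overlapping groups.

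Hspb1 encodes the small heat shock protein HSP25 (HSP27 in human), a holdase that binds unfolding proteins without ATP. It was at 20.9, 26.1 and 29.3 CPM in AdipoRonPEG5 livers, at 21.4, 18.7 and 25.9 CPM in AdipoRon livers and at 18.5, 20.01 and 21.9 CPM in vehicle livers. In CPM the groups overlapped, but by FPKM AdipoRonPEG5 (22.8 to 31.1) lay above vehicle (19.6 to 21.8). The log2 fold change of Hspb1 was 0.34 ± 0.14 with AdipoRonPEG5 (interval 0.03 to 0.66, adjusted p = 0.129) and 0.13 ± 0.15 with AdipoRon (adjusted p = 0.643), and neither passed. With vehicle 3 and AdipoRonPEG5 1 both left out, the AdipoRonPEG5 value passed (adjusted p = 0.0399), the only 1 of 20 alternatives in which it did. For this gene these were the highest vehicle and the lowest AdipoRonPEG5 library. Leaving them out was bound to widen the difference, so the pass is no support for a rise.

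Hspe1 was steady within each group. It was at 192, 191 and 191 CPM in AdipoRonPEG5 livers, at 178, 171 and 183 CPM in AdipoRon livers and at 201, 209 and 207 CPM in vehicle livers. In CPM the groups did not overlap and AdipoRon was lowest. By FPKM, AdipoRonPEG5 (196 to 206) and vehicle (199 to 208) overlapped. No comparison passed: AdipoRonPEG5 against vehicle -0.11 ± 0.066 (adjusted p = 0.308), AdipoRon against vehicle -0.21 ± 0.067 (adjusted p = 0.0893), AdipoRonPEG5 against AdipoRon 0.11 ± 0.067 (adjusted p = 0.383). Its partner Hspd1, given for comparison although no naming rule chose it, averaged 446 ± 38 CPM with AdipoRonPEG5, 449 ± 30 CPM with AdipoRon and 444 ± 25 CPM with vehicle (SD, n = 3 each). Their gene intervals overlap by 96 bases on opposite strands, and the strand setting of the counting was not stated.

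**Figure D4:**
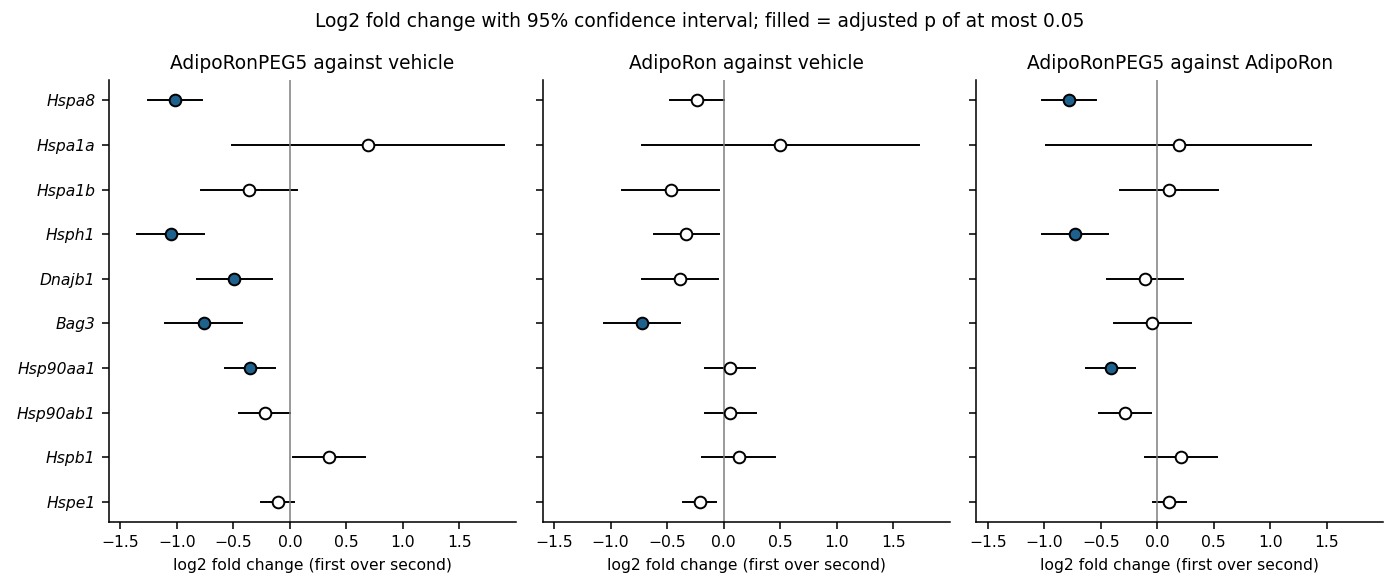
Log2 fold change of each heat shock gene in the 3 comparisons (points) with 95% confidence intervals (lines); filled points passed an adjusted p of 0.05. Filled points number 5 for AdipoRonPEG5 against vehicle, 1 for AdipoRon against vehicle (Bag3) and 3 for AdipoRonPEG5 against AdipoRon, all below 0.

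The rest of the chaperone network was read from 10 further gene lists, and their counts are set beside the shares of all genes called above. At an unadjusted p under 0.05 those shares, in either direction, were 31.4% for AdipoRonPEG5 against vehicle, 21.9% for AdipoRon against vehicle and 21.8% between the compounds. Among 9 HSP90 co-chaperones, 3 fell with AdipoRonPEG5 against vehicle and 0 with AdipoRon (1 at an unadjusted p under 0.05 in edgeR, 0 called by DESeq2). Fkbp4, which encodes the immunophilin FKBP52 of steroid receptor complexes, averaged 171 ± 11 CPM with AdipoRonPEG5, 224 ± 14 CPM with AdipoRon and 249 ± 11 CPM with vehicle (SD, n = 3 each). Its log2 fold change was -0.54 ± 0.082 (SE) against vehicle (adjusted p = 0.00187) and -0.39 ± 0.082 against AdipoRon (adjusted p = 0.0242). Chordc1, which encodes the HSP90-binding protein CHP1, fell with AdipoRonPEG5 (-0.57 ± 0.11, adjusted p = 0.0056), and so did Ahsa1, the activator of the HSP90 ATPase (-0.28 ± 0.077, adjusted p = 0.031). The list's median was -0.17 with AdipoRonPEG5 and -0.10 with AdipoRon. The Ahsa1 call was lost without any of AdipoRonPEG5 1 or 2 and vehicle 2 or 3 (adjusted p up to 0.115), and the Fkbp4 call between the compounds without any of AdipoRonPEG5 1 or 2 and AdipoRon 2 or 3 (up to 0.105).

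Of 10 tested cytosolic J-domain genes other than Dnajb1, 3 fell with AdipoRonPEG5 and 0 with AdipoRon (2 at an unadjusted p under 0.05 in edgeR, 0 called by DESeq2). Dnaja1, a farnesylated partner of HSC70, averaged 271 ± 8.1 CPM with AdipoRonPEG5, 344 ± 17 CPM with AdipoRon and 347 ± 23 CPM with vehicle (SD, n = 3 each). Its log2 fold change was -0.36 ± 0.082 against vehicle (adjusted p = 0.0137) and -0.34 ± 0.082 against AdipoRon (adjusted p = 0.038). Dnajb2 and Dnajc7 each fell by 0.39 on the log2 scale with AdipoRonPEG5 (adjusted p = 0.00583 and 0.00823). The Dnaja1 call against vehicle was lost without AdipoRonPEG5 2 (adjusted p = 0.057), and that against AdipoRon without any 1 of the 6 libraries compared, or vehicle 2 (up to 0.131).

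The exchange factors and adaptors of HSP70 other than Hsph1 and Bag3 gave no edgeR call among 9 genes in any comparison (2 at an unadjusted p under 0.05 in each, and 1 called by DESeq2 for AdipoRonPEG5 against vehicle). Stip1, which encodes HOP, the adaptor that passes clients from HSP70 to HSP90, was at 76.3 ± 8.3 CPM with AdipoRonPEG5, 89.9 ± 5.1 CPM with AdipoRon and 92.9 ± 5.9 CPM with vehicle (SD, n = 3 each; AdipoRonPEG5 against vehicle -0.28 ± 0.092, adjusted p = 0.0567). Hspbp1, another exchange factor, gave -0.20 ± 0.078 in that comparison (adjusted p = 0.105). Of 6 tested genes of other cytosolic HSP70 and HSP110 proteins, only Hspa12a fell, and it was at a low level: 0.584 ± 0.19 CPM with AdipoRonPEG5, 1.39 ± 0.20 CPM with AdipoRon and 1.33 ± 0.32 CPM with vehicle (-1.22 ± 0.33 against vehicle, adjusted p = 0.0268). That call was lost without any of AdipoRonPEG5 1 or 2 and vehicle 1 or 2 (adjusted p up to 0.117).

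None of 4 genes of HSF factors and their regulators passed in edgeR against vehicle (1 at an unadjusted p under 0.05 with AdipoRonPEG5 and 2 with AdipoRon, 0 called by DESeq2). Hsf1, the main stress-activated HSF, was at 19.0 ± 2.6 CPM with AdipoRonPEG5, 19.2 ± 0.72 CPM with AdipoRon and 23.3 ± 1.7 CPM with vehicle (SD, n = 3 each; AdipoRonPEG5 against vehicle -0.30 ± 0.11, adjusted p = 0.0779). Without AdipoRonPEG5 1 it passed (adjusted p range over 20 alternatives 0.0261 to 0.309). Hsbp1, which encodes a small protein that binds HSF1, gave 0.10 ± 0.072 with AdipoRonPEG5 against vehicle (adjusted p = 0.36) and was higher with AdipoRonPEG5 than with AdipoRon (0.30 ± 0.072, adjusted p = 0.0364). The call between the compounds was lost without any of AdipoRonPEG5 1 or 2, AdipoRon 1, 2 or 3 and vehicle 2 (adjusted p = 0.0613 to 0.127).

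Of 8 further small heat shock genes, 3 were tested and none passed in edgeR (2 at an unadjusted p under 0.05 with AdipoRonPEG5, of which DESeq2 called 1); Hspb8 gave -0.38 with AdipoRonPEG5 (adjusted p = 0.0648) and Hspb6 gave 0.26 (adjusted p = 0.155). In the chaperonin TRiC and its helper prefoldin, none of the 8 CCT subunit genes passed in any comparison. Prefoldin genes did: Pfdn2 (-0.34, adjusted p = 0.0151) and Pfdn6 (-0.38, adjusted p = 0.0259) fell with AdipoRonPEG5, and Pfdn5 (-0.39, adjusted p = 0.0172), Pfdn2 (-0.33, adjusted p = 0.0383) and Pfdn1 (-0.35, adjusted p = 0.043) fell with AdipoRon. Pfdn5 was higher with AdipoRonPEG5 than with AdipoRon (0.33, adjusted p = 0.0318). Each of these prefoldin calls was lost in 2 to 8 of the 9 omissions of a single library (adjusted p = 0.051 to 0.126).

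Of 11 mitochondrial chaperone and protease genes, none passed in edgeR with AdipoRonPEG5 (1 at an unadjusted p under 0.05, 0 called by DESeq2); Dnaja3 gave -0.17 (adjusted p = 0.149) and Lonp1 0.15 (adjusted p = 0.249). Clpp, a protease subunit of the matrix, fell with AdipoRon (-0.39 ± 0.084, adjusted p = 0.0256), a call lost without any AdipoRon library, vehicle 2 or vehicle 3 (up to 0.0798). The cold-inducible RNA-binding genes Rbm3 and Cirbp gave -0.13 and -0.12 with AdipoRonPEG5 (adjusted p = 0.38 and 0.595), so that neither passed (0 at an unadjusted p under 0.05, 0 called by DESeq2).

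The chaperones of the endoplasmic reticulum, a separate folding compartment, held the largest count of these lists: 6 of 14 fell with AdipoRonPEG5 and 0 with AdipoRon, with medians of -0.49 and -0.37. With AdipoRon, 7 of the 14 had an unadjusted p under 0.05 in edgeR, beside 21.9% of all genes, and DESeq2 called 1. The list's summed level was 3735 to 4775 CPM in AdipoRonPEG5 and 4542 to 4820 CPM in AdipoRon libraries, and among vehicle libraries it was 5042 and 5232 CPM in vehicle 1 and 2 and 7355 CPM in vehicle 3, which stood apart. Hspa5, the HSP70 of that compartment (BiP), was at 884, 503 and 615 CPM in AdipoRonPEG5 1, 2 and 3, at 911 to 999 CPM in AdipoRon libraries, and at 1106, 1089 and 1556 CPM in vehicle 1, 2 and 3. It averaged 667 ± 195 CPM with AdipoRonPEG5, 962 ± 45 CPM with AdipoRon and 1250 ± 265 CPM with vehicle (SD, n = 3 each; AdipoRonPEG5 against vehicle -0.91 ± 0.20, adjusted p = 0.0103). Hyou1, its HSP110-like exchange factor, fell by 1.11 ± 0.18 on the log2 scale (adjusted p = 0.00284), and Creld2, a folding factor of the same compartment, by 1.42 ± 0.29 (adjusted p = 0.00746). Without vehicle 3, 6 genes of the list were called and Hspa5 gave -0.72 (adjusted p = 0.0196). The count of called genes of the list was 3 without AdipoRonPEG5 2 and ran from 2 to 8 over 20 alternatives, lowest with vehicle 1 and AdipoRonPEG5 3 left out, where Hspa5 was at an adjusted p of 0.0602.

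**Figure D5:**
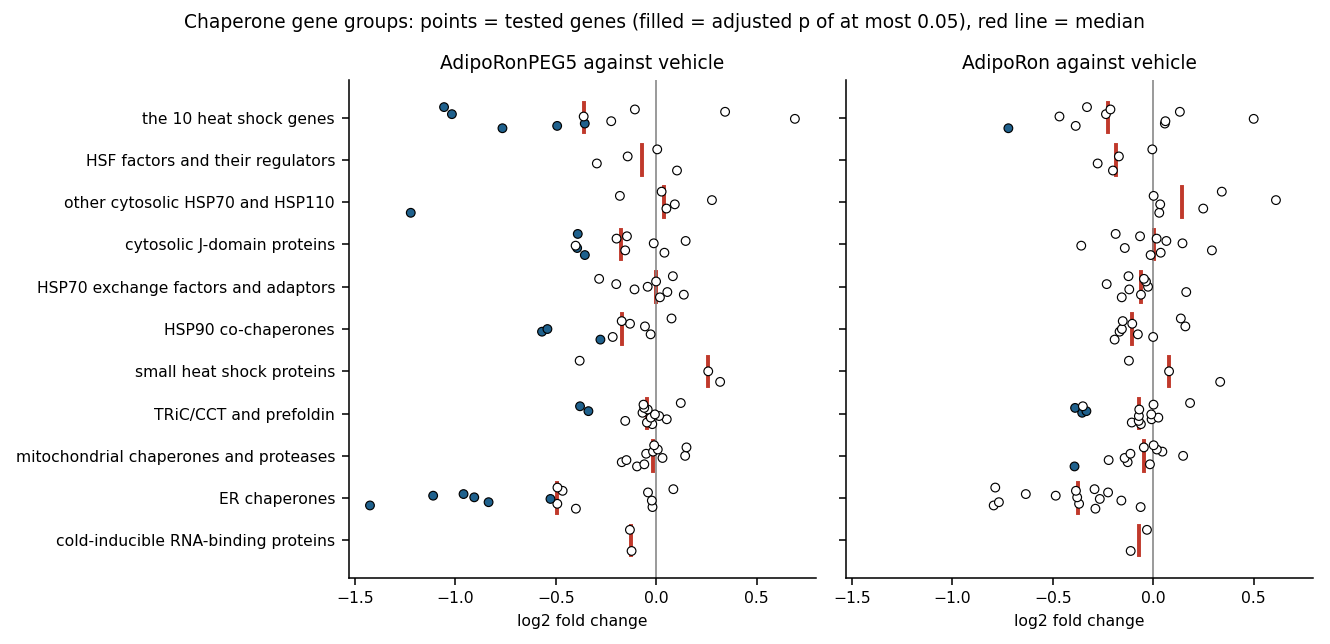
Log2 fold change of every tested gene of the 10 heat shock genes and of the 10 further chaperone lists, for each compound against the same vehicle libraries; filled points passed an adjusted p of 0.05 and red lines are medians. The median of the endoplasmic reticulum list is -0.49 with AdipoRonPEG5 and -0.37 with AdipoRon, and that of the mitochondrial list is -0.02 and -0.05.

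Other genes moved with the groups. Macrophage markers were higher in 11 of 12 genes with AdipoRonPEG5 and in 10 with AdipoRon, with summed levels of 710 to 753 CPM in AdipoRonPEG5, 464 to 829 CPM in AdipoRon and 198 to 282 CPM in vehicle livers; Marco rose by 4.26 and Cd5l by 1.98 on the log2 scale with AdipoRonPEG5 (adjusted p = 3.64e-05 and 0.00024). Hepatocyte markers, which check the labelled tissue, were abundant in every library: the 7 found of 8 listed summed to 84268 to 93716 CPM in AdipoRonPEG5, 78524 to 87948 CPM in AdipoRon and 87331 to 101980 CPM in vehicle livers. Of these, 3 of 7 fell with AdipoRonPEG5, beside 7.63% of all genes called lower. Among them were Apoa1 (-0.65, adjusted p = 0.0155) and Cps1 (-0.47, adjusted p = 0.0201). Both calls were lost without AdipoRonPEG5 1 or 2, and that of Cps1 also without vehicle 2 (adjusted p up to 0.0831). The list did not move as 1: the means of Serpina1a and Cyp2e1 were also lower than in vehicle. Those of Alb (55753 against 54928 CPM), Apob (4954 against 4686 CPM) and Ttr (6874 against 6631 CPM) were higher. The whole count of hepatocyte markers called was 0 without AdipoRonPEG5 1, 0 without AdipoRonPEG5 2 and 1 without vehicle 2. Erythrocyte markers gave no call among 5 tested (0 at an unadjusted p under 0.05, 0 by DESeq2). No listed marker was at 0 in any library. The part of these shifts in the heat shock results was not tested.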

How the data were processed

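Total RNA of 9 mouse liver libraries had been sequenced, 3 for each of AdipoRonPEG5, AdipoRon and vehicle, grouped by the treatment label. Raw counts of reads for each gene were deposited beside FPKM that the authors computed; each deposited FPKM equals the count over a whole gene length and the library total (whole within 0.01 for 99.995% of nonzero values). Counts were tested; FPKM served only to set levels of different genes side by side. Per the submitters' processing notes, STAR 2.5, TopHat, HTSeq 0.6.1, DESeq2 and edgeR were used, with no role or order given. Build, annotation, strand setting and handling of reads with several matches are not given in the sources used here. Of the entries, 21500 had a count and 126 shared a name with another, none of them among the 10 heat shock genes.

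In R 4.3.3, edgeR 4.0.16 fitted all 9 libraries with 3 group means (filterByExpr, TMM, robust set to FALSE), leaving 13151 genes and 6 residual degrees of freedom, with Benjamini-Hochberg adjustment over all of them at 0.05. The fit was tested on simulated data. Ratios were compared by exact permutation tests of log2 values. Library totals were 13942322 to 18508950 counts, and 39473195 in vehicle 1. The floor of 3 counts covers counting error only. The 95% confidence intervals of log2 fold changes came from the edgeR fit and include the spread between libraries. No libraries of a group were near duplicates. Same-numbered libraries did not deviate together (correlations -0.30 to 0.087 over 9 pairs), so the numbers were taken as names. Alternatives were DESeq2 1.42.0, limma-voom (limma 3.58.1), RLE factors, scaling by total counts, every gene with a count kept, genes kept from a mean of 1 CPM, only the 2 groups compared, a replicate block, each library left out, vehicle 3 and AdipoRonPEG5 1 left out, vehicle 1 thinned, and the Hspa1 pair summed. Leaving out vehicle 1 with AdipoRonPEG5 3, and applying the alternatives to genes outside the 10, were chosen after seeing the data.

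The 10 genes and the gene lists were chosen with earlier results of these data known. Named genes were the 10, up to 3 called genes of each chaperone list per comparison by lowest p (the 2 lowest where none was called), up to 2 of each other list, and the 5 genes most like Hspa8; Hspd1 and Hspa1l were named besides, after their values were seen. Of the listed symbols, 1 hepatocyte marker was not matched. The 50-base words came from GENCODE M21 (GRCm38.p6), and gene positions and promoter windows from RefSeq. The build of the deposited table may differ.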

Additional observations from a re-analysis of the deposited data

How the results depend on the processing

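The 20 alternatives kept the falls of Hspa8, Hsph1 and Bag3 with AdipoRonPEG5 against vehicle, and those of Hspa8 and Hsph1 against AdipoRon, past the threshold. For AdipoRonPEG5 against vehicle, 5 of the 10 genes were called; with total-count scaling and with only the 2 groups compared it was 3 in each, without Dnajb1 and Hsp90aa1, and with 1 library left out 3 to 5. For AdipoRon against vehicle, 1 was called; DESeq2 gave 2 (Hspe1 added, adjusted p = 0.0214), leaving out vehicle 3 and AdipoRonPEG5 1 gave 2 (Hspa1b added, 0.0329), leaving out vehicle 1 and AdipoRonPEG5 3 gave 0, and with 1 library left out 0 to 1. Between the compounds, 3 were called, and 2 to 3 with 1 library left out. The replicate block gave 4, 1 and 2 calls in the 3 comparisons. The labels do not say whether the numbers pair libraries, and 0 of 9 libraries correlated best with one of its own number. With 3 libraries per group, this does not exclude a pairing. Directions of log2 values that were not called turned as follows. Leaving out vehicle 1 and AdipoRonPEG5 3 gave -0.0423 for Hsp90aa1 with AdipoRon, -0.454 for Hspa1a and -0.0535 for Hspa1b between the compounds, and 0.00781 for Cirbp with AdipoRonPEG5. Leaving out vehicle 3 and AdipoRonPEG5 1 gave 0.0643 for Dnajb1 and 0.0369 for Bag3 between the compounds, and limma-voom gave -0.158 for Hspa1a there. Summing the Hspa1 pair turned Hspa1a to -0.31 with AdipoRonPEG5 and -0.43 with AdipoRon. With single libraries left out, values with AdipoRon ran from -0.0171 to 0.116 for Hsp90ab1, from -0.00218 to 0.231 for Hspb1 and from -0.0424 to 0.111 for Hsp90aa1, and Cirbp with AdipoRonPEG5 ran from -0.250 to 0.00444. Between the compounds they ran from -0.318 to 0.0583 for Dnajb1, from -0.179 to 0.0303 for Bag3, from -0.455 to 0.637 for Hspa1a and from -0.0538 to 0.276 for Hspa1b. The cause of these changes was not tested. Total-count scaling moved the median log2 change of all genes to 0.081 with AdipoRonPEG5 and 0.104 with AdipoRon. At 6 to 42 counts per library, a difference in Hspa1a was not detectable within its interval.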

Other observations

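Within the AdipoRonPEG5 group, the order of the libraries was not the same for all heat shock genes. Hspa1a, Hspa1b, Dnajb1, Bag3, Hspb1 and Hsp90ab1 were each lowest in AdipoRonPEG5 1 and highest in AdipoRonPEG5 3, while Hspa8, Hsph1 and Hsp90aa1 were lowest in AdipoRonPEG5 2. The summed level of 9 tested and 1 untested immediate early genes was also lowest in AdipoRonPEG5 1, at 116 CPM, and was 243 CPM in AdipoRonPEG5 2 and 297 CPM in AdipoRonPEG5 3. It was 107 to 152 CPM in AdipoRon and 94.2 to 125 CPM in vehicle libraries. Of 9 tested genes of that list, 2 rose with AdipoRonPEG5 against vehicle in edgeR: Atf3 (log2 fold change 3.54 ± 0.73, adjusted p = 0.00822) and Jun (2.70 ± 0.61, adjusted p = 0.0124), both transcription factor genes induced within minutes by many stimuli. Atf3 was at 2.59, 2.96 and 16.8 CPM in AdipoRonPEG5 1, 2 and 3, against 0.520 to 0.821 CPM with vehicle, and its log2 fold change was 2.12 without AdipoRonPEG5 3 (adjusted p = 0.00453). Jun averaged 78.7 ± 64 CPM with AdipoRonPEG5, and its libraries differed widely, at 12.8, 82.8 and 140 CPM in AdipoRonPEG5 1, 2 and 3. AdipoRonPEG5 1 thus lay within the vehicle range of Jun, 9.66 to 14.4 CPM. The Jun call was lost without AdipoRonPEG5 3 (adjusted p = 0.0513) and with limma-voom. The count was 5 without AdipoRonPEG5 1 and 1 without AdipoRonPEG5 3. With 3 libraries per group this order carries no test, and its part in the heat shock values was not tested.

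Acute phase genes set other libraries apart. Their summed level was 17568 CPM in AdipoRonPEG5 1 and 9741 to 9967 CPM in the other AdipoRonPEG5 libraries, 6701 to 9222 CPM in AdipoRon libraries, and 27708 CPM in vehicle 3 against 6423 to 6882 CPM in the other vehicle libraries. With all 9 libraries in the fit, none of the 8 genes passed in edgeR in any comparison (1 at an unadjusted p under 0.05, between the compounds; limma-voom called 2 for AdipoRonPEG5 against vehicle, DESeq2 0). Without vehicle 3, 7 of the 8 passed for AdipoRonPEG5 against vehicle, 1 for AdipoRon against vehicle and 3 between the compounds. Without both vehicle 3 and AdipoRonPEG5 1 the counts were 7, 5 and 3. These libraries had the highest sums of their groups, so leaving them out lowers the level and spread of these same genes. The counts after it therefore show no response to a compound, and the shares of all genes called in those fits are not given here. With the fit limited to both compounds, 3 passed between them. With vehicle 3 and AdipoRonPEG5 1 left out, Hspa8 fell with AdipoRonPEG5 against vehicle as before, and its value over all alternatives ran from -1.14 to -0.92.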
